A study of Mus musculus with 12 samples.

Results

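Gene expression in 3T3-L1 adipocytes given alpha-linolenic acid (ALA) was compared with that in vehicle-treated adipocytes, on 6 of the 12 arrays of the study. The 6 arrays were taken by their treatment labels, 3 labelled as ALA and 3 as control, with 1 array of each group from passages 6, 7 and 8. 3T3-L1 is a line of mouse embryonic fibroblasts that become fat-storing adipocytes after a hormonal cocktail is added to confluent cells. The ALA cultures received 50 µM ALA through the whole of differentiation, and RNA was taken on day 8. The control cultures received ethanol and DMSO over the same days. All cultures were kept in high-glucose medium, with insulin at 5 µg/ml after the cocktail. The labels state 2% fatty-acid-free albumin only for the medium of the ALA cultures, and name the solvents only for control. Matching of the solvents and the albumin between groups is not described in those labels, and their part in the differences was not tested. The other 6 arrays, of cells given ALA with 5 µM of a delta-6-desaturase inhibitor or the inhibitor alone, are used below for the spread and for 1 comparison. All passages are of 1 cell line, so each SD and p-value measures the spread between cultures of that line.

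ALA, an essential fatty acid of plant oils, is the parent of the omega-3 family. The delta-6-desaturase Fads2, the elongase Elovl5 and the delta-5-desaturase Fads1 lengthen and desaturate it to the long-chain omega-3 fatty acids. Polyunsaturated fatty acids are known as ligands of the PPAR nuclear receptors, and in liver cells they are known to lower the activity of the SREBP transcription factors, which drive the genes of fatty acid and sterol synthesis. SREBPs are made as membrane proteins of the endoplasmic reticulum, where Insig proteins hold them back when sterols are plentiful. LXR, the oxysterol receptor, drives cholesterol export, apolipoprotein genes and the stearoyl-CoA desaturase Scd1.

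The deposited values were log2 array signals of 22104 transcript clusters, each cluster standing for the probes of about 1 gene. The account below covers the 11036 clusters (49.9%) whose mean over the 12 arrays lay above the array median. The 6 arrays had medians between 6.18 and 6.27 and signals between 1.56 and 13.4. The ALA array of passage 7 stood apart. Across clusters its correlations with the remaining arrays were 0.976 to 0.987, while those 11 correlated among themselves at 0.989 to 0.994. The SD of its signals over clusters was 2.25, against 2.32 to 2.39 in the other 11. The differences between ALA and control in the 3 passages leaned in different ways with signal level. In passage 7 the median difference was 0.07 to 0.15 in the 5 dimmest signal deciles and -0.05 to -0.08 in the 4 brightest. Passage 6 leaned the other way, with -0.05 to -0.08 in the dimmest 5 and 0.02 to 0.04 in the brightest 4. Results are therefore given with and without the ALA array of passage 7.

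**Figure D1:**
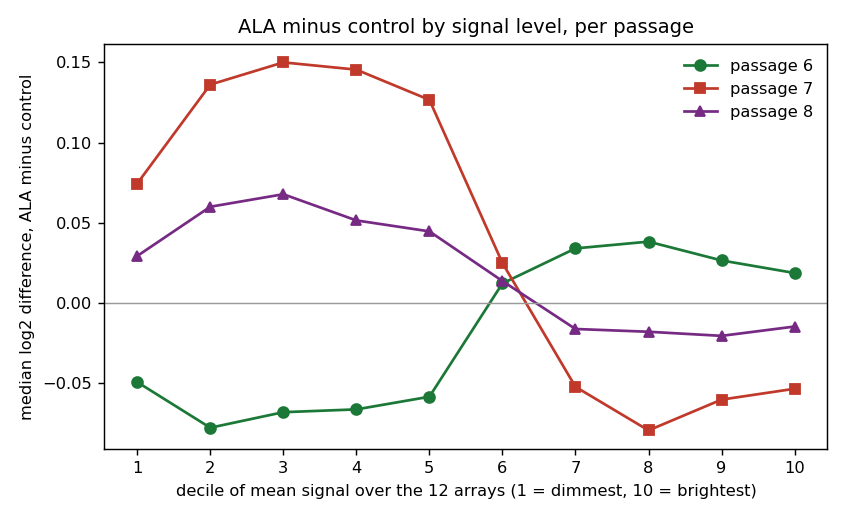
Median log2 difference, ALA minus control, of the clusters in each decile of mean signal, with 1 line for each passage. Passage 7 runs from 0.15 in dim clusters to -0.08 in bright ones, passage 8 has a smaller slope of the same direction and passage 6 an opposite one.

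Among above-median clusters the per-passage differences had an SD of 0.185 in passage 6, 0.329 in passage 7 and 0.182 in passage 8. Across these clusters, which share arrays and are not independent, the differences correlated at -0.17 between passages 6 and 7, -0.05 between passages 6 and 8 and 0.32 between passages 7 and 8. Passages 7 and 8 thus resembled each other more than either resembled passage 6.

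No gene passed the test corrected for multiple testing. With limma fitted to all 12 arrays, 0 of 22104 clusters (0%) had a Benjamini-Hochberg adjusted p under 0.05, and the smallest adjusted p among above-median clusters was 1.00. At unadjusted p under 0.05 there were 753 clusters (3.41%). The study's own threshold was an unadjusted p under 0.01, which 18 of the 11036 above-median clusters met (0.163%), 6 of them higher (0.0544%) and 12 lower (0.109%) with ALA. At that threshold 110.4 would be expected by chance. Without the ALA array of passage 7 the threshold was met by 15 above-median clusters (0.136%), 10 higher (0.0906%) and 5 lower (0.0453%), and 3 clusters stood in both sets. The count was 99 without the ALA array of passage 6, 38 without that of passage 8 and 57 with passage as a block in the fit. Every difference below is therefore a measured value, and none is a call after correction. Intervals, SEs or array values are printed for some genes only. Only 3 arrays a group limit the precision, with a median SE of 0.138 on the log2 scale among above-median clusters.

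Of the 36 gene lists with at least 5 above-median members, the enzymes that make squalene and turn it into cholesterol had the lowest median with ALA. This squalene-to-cholesterol list had 12 members, of which 10 were measured, all above the median. All 10 were lower with ALA, against 53.9% of all above-median clusters, and their median log2 difference was -0.23, against -0.01 over all above-median clusters. Their median was -0.24 in passage 6, -0.24 in passage 7 and -0.22 in passage 8, and 9 of the 10 genes were lower in every passage (background 14.6%). In 7 of the 10 the 3 ALA arrays all lay below the 3 control arrays (background 3.01%). Without the ALA array of passage 7 all 10 remained lower, against 42.5% of above-median clusters, with a median of -0.17, and 7 did not overlap (background 5.77%). The same 10 were lower after quantile normalization (median -0.21) and after centring each array on its median (-0.23). These measurements are of whole cultures, so fewer cells with the transcript and less of it per cell cannot be told apart.

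The promoters of the 3 members with the smallest p-values that have a RefSeq promoter entry are shown because the genes of this pathway are known to be driven together by SREBP-2 with the CCAAT-binding factor NF-Y. Each line is the 250 bases before the annotated start in GRCm38.p6, read 5′ to 3′ on the gene's strand, with CCAAT or its reverse complement ATTGG in capitals. The windows are chr9:42264301-42264550 for Sc5d, chr5:4104698-4104947 for Cyp51 and chr1:169969206-169969455 for Hsd17b7, all on the minus strand.
Sc5d: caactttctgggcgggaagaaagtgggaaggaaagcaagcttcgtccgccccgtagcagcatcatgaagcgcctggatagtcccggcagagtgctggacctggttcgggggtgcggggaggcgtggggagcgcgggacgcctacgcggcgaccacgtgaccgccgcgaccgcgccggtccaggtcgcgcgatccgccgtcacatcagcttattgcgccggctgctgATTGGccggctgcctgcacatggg
Cyp51: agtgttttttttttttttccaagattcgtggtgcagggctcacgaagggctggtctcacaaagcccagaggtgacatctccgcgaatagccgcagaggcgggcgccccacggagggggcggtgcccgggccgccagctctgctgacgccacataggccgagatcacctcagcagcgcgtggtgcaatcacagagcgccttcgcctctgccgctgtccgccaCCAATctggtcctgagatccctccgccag
Hsd17b7: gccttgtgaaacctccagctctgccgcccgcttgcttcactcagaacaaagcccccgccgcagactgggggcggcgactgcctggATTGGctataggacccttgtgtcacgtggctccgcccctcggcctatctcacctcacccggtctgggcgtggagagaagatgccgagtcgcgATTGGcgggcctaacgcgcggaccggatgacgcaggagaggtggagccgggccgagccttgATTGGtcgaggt

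CCAAT, searched on both strands, was present in the window of 8 of the 8 squalene-to-cholesterol genes with an entry and in 5 of 5 mevalonate-step genes. It was present in 37.5% of all 27025 RefSeq promoters of this length and in 40.9% of those of 8190 above-median genes. The sterol regulatory element core, searched as TCACNCCAC on both strands, was in 1 of the 5 mevalonate-step windows, that of Hmgcs1, and in 0 of the 8 others, against 1.22% of all promoters. Only this form was searched, so 0 matches cannot tell whether a window holds another form of the element. Neither motif lies within the other. These matches describe letters in the windows and were not tied to binding or to the differences.

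Sc5d, the desaturase near the end of the pathway, gave the smallest p of the group. Its log2 signal was 11.06, 10.86 and 10.96 in ALA cultures of passages 6, 7 and 8, against 11.44, 11.30 and 11.34 in control. Every ALA array was below every control array. The difference was -0.40 (SE 0.11, limma unadjusted p = 0.0024), and -0.35 without the ALA array of passage 7. Cyp51, the lanosterol demethylase, measured 9.90, 9.47 and 9.52 with ALA, against 10.26, 10.11 and 9.98 in control. The ALA array of passage 6 was the highest of its group, close to the lowest control array, and the groups did not overlap. Its difference was the largest in size of the 10, at -0.48 (SE 0.18).

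Sqle, the squalene epoxidase, measured 10.54, 10.53 and 10.39 with ALA, against 10.78, 10.76 and 10.82 in control. All 3 ALA arrays lay below control, by -0.30 in the mean (SE 0.12) and by -0.32 without the ALA array of passage 7. Hsd17b7, a sterol ketoreductase, measured 9.81, 9.67 and 9.85 with ALA, against 10.09, 9.92 and 10.07 in control, and the groups again did not overlap. The C4-decarboxylase Nsdhl averaged 11.59 ± 0.05 with ALA and 11.77 ± 0.02 in control (SD, n = 3 each). Ebp, the sterol isomerase, averaged 8.58 ± 0.29 with ALA and 8.84 ± 0.05 in control, and its difference of -0.26 became -0.09 without the ALA array of passage 7. The first enzyme, Fdft1 (squalene synthase), differed by -0.14, and its groups did not overlap. The groups overlapped for Lss (the lanosterol cyclase, -0.15), Msmo1 (the C4-methyl oxidase, -0.21) and Dhcr7 (the last reductase, -0.15).

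The earlier mevalonate and isoprenoid steps were lower with ALA in 5 of 6 measured members, with a median of -0.13. The median was -0.05, -0.08 and -0.26 in passages 6, 7 and 8, so this group varied more between passages than the later enzymes. Without the ALA array of passage 7 the same 5 members were lower, and Mvk was higher by 0.05. Mvd, the mevalonate diphosphate decarboxylase, was the 1 member whose groups did not overlap (background 3.01% lower). It measured 9.33, 9.41 and 9.33 with ALA, against 9.42, 9.53 and 9.60 in control. The other named members, Pmvk and Idi1, differed little in passage 6 and were lower with ALA in passages 7 and 8. The differences in passages 6, 7 and 8 were -0.06, -0.61 and -0.34 for Pmvk and -0.01, -0.72 and -0.49 for Idi1. The values without the ALA array of passage 7 keep the control array of that passage. Pmvk, the phosphomevalonate kinase, measured 8.60, 7.97 and 8.49 with ALA, against 8.67, 8.58 and 8.83 in control, and its difference of -0.34 became -0.15 without the ALA array of passage 7. Idi1, the isopentenyl diphosphate isomerase, measured 9.44, 8.71 and 9.58 with ALA, against 9.45, 9.43 and 10.07 in control, and its difference of -0.41 became -0.14.

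The genes of sterol sensing, uptake and SREBP control were lower in 9 of 10 above-median members, with a median of -0.09 that was 0.03 in passage 6 and -0.18 in passage 8. Without the ALA array of passage 7, Insig2 (0.17), Scap (0.11) and Mbtps1 (0.05) were higher with ALA and all other members lower. No member of this list had groups that did not overlap. Insig1, itself a sterol-regulated gene, measured 11.13, 10.97 and 10.74 with ALA, against 11.39, 11.23 and 11.11 in control. The ALA array was lower in each passage, by -0.26, -0.26 and -0.36, while the ranges of the groups overlapped by the spread between passages. Its difference was -0.29 (SE 0.13) and -0.31 without the ALA array of passage 7. The cholesterol carrier Stard4 differed by -0.35, and by -0.16 without that array.

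**Figure D2:**
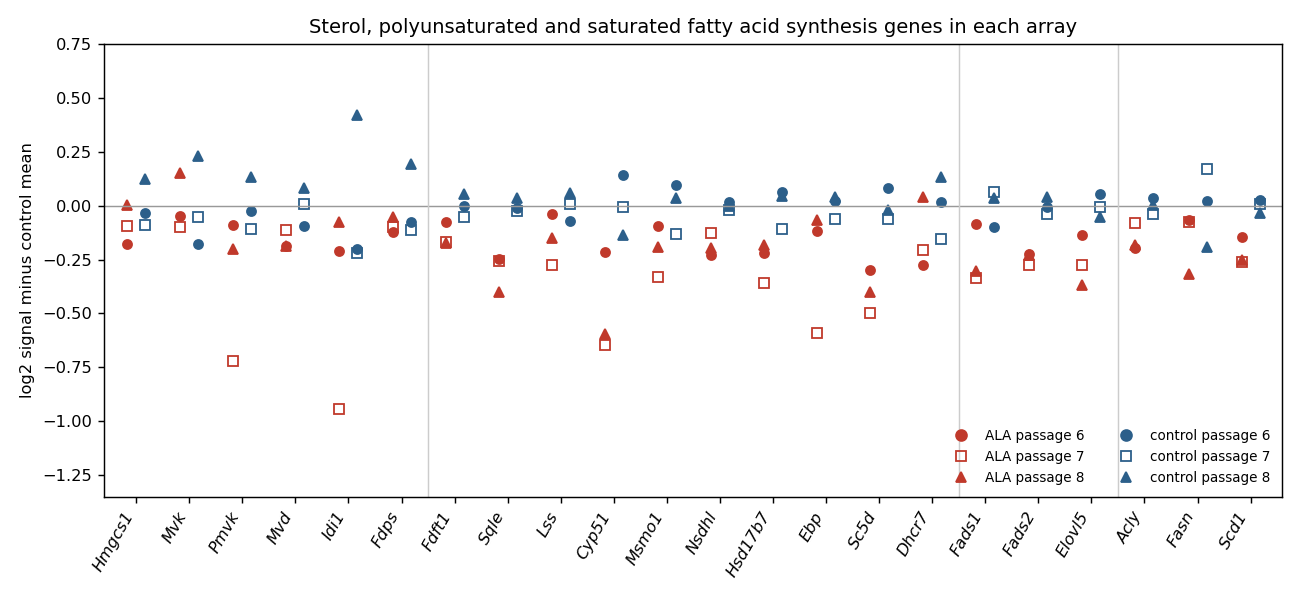
Log2 signal of each array minus the control mean of the gene, for the 6 mevalonate-step genes, the 10 squalene-to-cholesterol genes, 3 polyunsaturated fatty acid synthesis genes and 3 fatty acid synthesis genes, from left to right between the grey lines. Red symbols are ALA arrays and blue ones control arrays, with open squares for passage 7. For Sc5d, Sqle, Cyp51, Fads2 and Scd1 all red symbols lie below all blue ones, and for Pmvk and Idi1 the open red square lies far below the other ALA arrays.

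Of the enzymes that turn ALA into longer omega-3 fatty acids, Fads2, which acts on ALA itself, and Elovl5 had lower signals with ALA without overlap, while Fads1 overlapped. Fads2 measured 12.39, 12.35 and 12.39 in ALA cultures, against 12.61, 12.58 and 12.66 in control. The spread within each group was small beside the gap between them. The difference was -0.24 (SE 0.09, 95% interval -0.45 to -0.04, limma unadjusted p = 0.023), and -0.23 without the ALA array of passage 7. Elovl5 measured 10.79, 10.65 and 10.56 with ALA, against 10.98, 10.92 and 10.88 in control, with a difference of -0.26. Fads1 measured 11.48, 11.23 and 11.26 with ALA, against 11.47, 11.63 and 11.60 in control. In passage 6 its ALA and control arrays were nearly equal. Of the 9 above-median desaturases and elongases of the list, 8 were lower and 1 higher, with a median of -0.08. Without the ALA array of passage 7, 7 were lower (median -0.05), and in single passages 6, 5 and 7 were. Only Fads2 and Elovl5, 2 of the 9, were below control without overlap (background 3.01%).

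Fatty acid synthesis genes were lower in 10 of 11 above-median members, with a median of -0.15, and in 11 of 11 without the ALA array of passage 7, with a median of -0.17. The per-passage medians were -0.11, -0.11 and -0.19. Scd1, the stearoyl-CoA desaturase, measured 12.99, 12.88 and 12.89 with ALA, against 13.16, 13.15 and 13.10 in control, a difference of -0.22 with no overlap. Acly, which makes cytosolic acetyl-CoA from citrate, measured 11.07, 11.19 and 11.09 with ALA, against 11.31, 11.23 and 11.27 in control. These were the 2 members of 11 whose groups did not overlap (background 3.01% lower). Fasn, the fatty acid synthase, was lower in each passage, by -0.09, -0.24 and -0.13, with overlapping groups. Thrsp, a lipogenic protein that varied widely between passages, differed by -0.46 (SE 0.50, which includes that spread). It was lower in each passage, by -0.29, -0.36 and -0.73. With passage as a block its limma unadjusted p was 0.048 and its adjusted p 0.901.

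LXR targets were lower in 10 of 11 above-median members, with a median of -0.15 (-0.12 without the ALA array of passage 7). Scd1 is a member of this list also. The apolipoprotein gene Apoc1 measured 9.17, 8.47 and 8.71 with ALA, against 9.47, 9.29 and 9.48 in control. The ALA arrays of passages 7 and 8 were far below control, and that of passage 6 was below it by less. The difference was -0.63 (SE 0.16, limma unadjusted p = 0.0022), the smallest p among above-median genes lower in every passage, and -0.47 without the ALA array of passage 7. Apoc1 and Scd1 were the 2 members of 11 without overlap (background 3.01% lower). The cholesterol exporter Abca1 differed by -0.25, and by -0.11 without that array.

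Genes through which fatty acids are taken up, sensed and burned did not share a direction. Fatty acid uptake, binding and activation genes were lower in 8 of 11 members with all arrays and in 4 of 11 without the ALA array of passage 7, and their median was -0.07 with it and 0.03 without it. Slc27a4, a fatty acid transport protein with acyl-CoA synthetase activity, measured 8.45, 8.65 and 8.57 with ALA, against 8.34, 8.31 and 8.44 in control. It was the 1 member above control without overlap (background 3.25%). Acbd3, an acyl-CoA-binding-domain protein of the Golgi, was the 1 below, by -0.16. The uptake receptor Cd36 differed by -0.03 and the fatty-acid-binding protein Fabp4 by -0.07, and both were higher with ALA without the passage 7 array (0.14 and 0.05).

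Fatty acid receptors and nuclear sensors were split 5 higher and 5 lower, with a median of 0.01. The coactivator Ppargc1b was the 1 member whose groups did not overlap (background 3.25% higher and 3.01% lower). It measured 8.74, 8.74 and 8.82 with ALA, against 8.89, 8.87 and 8.94 in control. The omega-3 receptor Ffar4 measured 9.44, 9.65 and 9.32 with ALA, against 9.92, 9.68 and 9.48 in control, and the groups overlapped (difference -0.22, 95% interval -0.71 to 0.26). Pparg, the master regulator of adipocytes, measured 11.83, 11.82 and 11.81 with ALA, against 11.78, 11.75 and 11.82 in control. Its difference was 0.04, with a 95% interval of -0.19 to 0.27.

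PPAR target genes were also split 5 and 5, with a median of 0.00 (-0.02 without the ALA array of passage 7). The established fatty-acid-responsive targets differed by -0.19 for Angptl4, a lipase inhibitor, by -0.09 for the lipid droplet protein Plin2 and by 0.22 for Cpt1a, the carnitine palmitoyltransferase of the mitochondrial outer membrane. The 95% intervals were -0.64 to 0.25, -0.33 to 0.15 and -0.38 to 0.83 in that order. Mitochondrial beta-oxidation genes were higher in 10 of 17 members (median 0.03), against 46.1% of all above-median clusters. Acads, the short-chain acyl-CoA dehydrogenase, measured 9.03, 9.03 and 9.04 with ALA, against 8.78, 8.85 and 8.83 in control. The ALA arrays were nearly equal and all above control, a difference of 0.21 that was also 0.21 without the passage 7 array. It was the 1 member of 17 whose groups did not overlap, a share near the background (3.25% higher and 3.01% lower). Peroxisomal oxidation genes were higher in 8 of 14 (median 0.01), and in 9 of 14 without the ALA array of passage 7 (median 0.04). There the fatty acid transporter Abcd3 measured 8.34, 6.15 and 8.32 with ALA, against 8.29, 8.05 and 8.95 in control, with differences of 0.05, -1.90 and -0.64 within passages 6, 7 and 8. Its mean difference of -0.83 became -0.10 without the ALA array of passage 7. Pecr, a peroxisomal enoyl-CoA reductase, was above control without overlap, by 0.18.

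The lists of storage and lipid droplet genes had medians close to 0. Triacylglycerol synthesis genes were split 6 higher and 7 lower (median -0.01), phospholipid remodelling acyltransferases 4 and 7 (median -0.02) and lipolysis and lipid droplet genes 10 and 5 (median 0.02). Cideb, a lipid droplet protein better known from liver, measured 6.23, 6.13 and 6.35 with ALA, against 6.78, 6.54 and 6.55 in control. It differed by -0.39 and was the 1 member of these 3 lists without overlap, which is no more than the background (3.01% lower and 3.25% higher). The droplet coat protein Plin3 measured 8.27, 8.44 and 8.34 with ALA, against 7.99, 8.01 and 8.31 in control, and passage 8 showed nearly no difference. Oxylipin enzymes and receptors were split 7 higher and 8 lower (median -0.02), but 12 and 3 without the ALA array of passage 7 (median 0.05). The listed cytochrome P450 genes, of families 2 and 4 plus Cyp1b1 of family 1, were split 2 and 5 (median -0.05). Without that array they were split 4 and 3, with a median of 0.01 that was the value of Cyp1b1. With all arrays Cyp1b1 differed by -0.13, so it was among the genes whose sign turned. Among them Cyp2u1 was the 1 above-median member without overlap (background 3.25% higher and 3.01% lower). It was higher with ALA, by 0.14, and by 0.09 without the ALA array of passage 7. Cyp2f2 measured 8.28, 8.15 and 7.70 with ALA, against 8.72, 8.75 and 8.06 in control. The groups overlapped, while within passages it was lower by -0.44, -0.60 and -0.35 (limma unadjusted p = 0.063, and 0.00098 with passage as a block, where the adjusted p was 0.901).

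The cultures of both groups carried the markers of adipocytes. Of 24 measured adipocyte markers 23 were above the median, and their mean log2 signal was 10.79 to 10.99 over the ALA arrays and 10.74 to 10.92 over the control arrays. Adiponectin (Adipoq), the main adipocyte hormone, measured 13.04, 12.96 and 13.16 with ALA, against 13.02, 13.00 and 13.18 in control. Car3, a carbonic anhydrase abundant in fat, had the smallest p of the markers. It measured 10.26, 10.70 and 11.20 with ALA, against 9.77, 9.98 and 10.48 in control. Within each passage the ALA array was higher, by 0.49, 0.72 and 0.72, while the groups overlapped because control passage 8 was above ALA passage 6. Leptin (Lep) measured 7.98, 8.03 and 8.37 with ALA, against 7.51, 7.69 and 8.16 in control, a difference of 0.34 with overlap. Adipocyte markers as a list were higher in 13 of 23 (median 0.02) and in 19 of 23 without the ALA array of passage 7 (median 0.07), where 57.5% of all above-median clusters were higher.

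Other parts of the adipocyte programme went both ways. Adipogenic transcription factors were split 8 higher and 10 lower (median -0.02) and 10 and 8 without the ALA array of passage 7 (median 0.01). The early regulator Klf4 was below control by -0.22 and the preadipocyte commitment factor Zfp423 above it by 0.21. Both were without overlap (background 3.01% lower and 3.25% higher). Adipokines and secreted factors were split 8 and 12 (median -0.02). Among them Rarres2, which encodes chemerin, measured 8.62, 8.61 and 8.35 with ALA, against 8.77, 8.75 and 8.99 in control, lower in each passage and most so in passage 8. Thermogenic markers were higher in 7 of 8 above-median members (median 0.10), but in 4 of 8 without the ALA array of passage 7 (median 0.00). Letmd1, a mitochondrial protein of brown fat, was the 1 of these without overlap (background 3.25% higher and 3.01% lower). It measured 9.70, 9.77 and 9.65 with ALA, against 9.62, 9.47 and 9.39 in control.

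Markers of other cell types were mostly dim in both groups. Of the measured markers 1 of 11 for macrophages (Cd14), 0 of 9 for endothelium, 3 of 12 for muscle and 4 of 10 for osteoblasts and chondrocytes were above the median. The macrophage list averaged 4.49 to 4.64 over ALA arrays and 4.49 to 4.66 over control arrays, and the endothelial list 4.23 to 4.49 over ALA arrays and 4.39 to 4.55 over control arrays. Preadipocyte and fibroblast markers, which 3T3-L1 cultures keep, were split 5 higher and 7 lower among 12 above-median members (median -0.02), and 8 and 4 without the ALA array of passage 7 (median 0.02). Collagens and matrix proteins were higher in 23 of 35 (median 0.02).

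Stress and metabolic lists are ordered in the plot of list medians. Integrated stress response genes were higher in 12 of 22 (median 0.01), and in 13 of 22 without the ALA array of passage 7 (median 0.04). Its transcription factor Atf5 measured 9.34, 9.33 and 9.46 with ALA, against 9.11, 9.19 and 9.22 in control, and the stress sensor Sesn2 measured 8.58, 8.34 and 8.47 with ALA, against 8.20, 8.25 and 8.33 in control. Both lay above control on every array (background 3.25%). Lipid peroxide handling and NRF2 targets were split 10 higher and 15 lower (median -0.04), but 17 and 8 without the ALA array of passage 7 (median 0.02), with no member free of overlap, and Gpx4, which reduces lipid peroxides in membranes, differed by 0.10 (95% interval -0.27 to 0.46). Inflammatory and acute-phase genes were lower in 14 of 21 (median -0.05), and in 12 of 21 without the ALA array of passage 7 (median -0.02). The ferroxidase ceruloplasmin (Cp) differed by -0.49, and by -0.32 without the ALA array of passage 7, and the metalloreductase Steap4 was below control without overlap, by -0.28.

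Glycolysis and hypoxia response genes were lower in 21 of 26 members (median -0.09), and in 20 of 26 without the ALA array of passage 7 (median -0.06). The median was 0.00, -0.11 and -0.13 in passages 6, 7 and 8. Vegfa, the angiogenic factor induced by hypoxia, differed by 0.01, -0.56 and -0.39 in passages 6, 7 and 8. Passage 6 showed nearly no difference, and the other passages gave lower signals with ALA. The oxygen sensor Egln1 differed by -0.23, and by -0.19 without the passage 7 array.

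Immediate early genes were lower in 17 of 22 (median -0.05) and circadian clock genes in 12 of 16 (median -0.06). Without the ALA array of passage 7 all above-median clock genes were lower except Clock (0.004), Cry1 (0.0002) and Dbp (0.06). The orphan receptor Nr4a1 measured 7.64, 7.51 and 7.70 with ALA, against 7.75, 8.05 and 7.87 in control, and the AP-1 subunit Fosl2 differed by -0.31, both without overlap. Ier3, an early response gene of cell survival, measured 7.68, 7.19 and 6.83 with ALA, against 7.66, 7.88 and 7.65 in control, with no difference in passage 6. Of the clock genes Ciart differed by -0.36, and by -0.18 without the ALA array of passage 7. The above-median clock genes without overlap were the receptor Rora and Bhlhe41, below control by -0.21 and -0.18 (background 3.01% lower).

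Several lists depended on the ALA array of passage 7. Heat shock proteins were lower in 11 of 15 members with all arrays (median -0.13) and in 7 of 15 without that array (median 0.01). The mitochondrial chaperone Hspa9 measured 11.17, 10.01 and 11.06 with ALA, against 10.94, 10.92 and 11.27 in control. The passage 7 array was more than 1 log2 unit below the other ALA arrays. Its difference of -0.30 became 0.07 without that array, that of the co-chaperone Dnajb4 (-0.37) became 0.01 and that of the heat shock factor Hsf2 (-0.27) became 0.04. Hsp90aa1, the inducible cytosolic HSP90, differed by -0.25, and by -0.03 without it. Endoplasmic reticulum chaperones were lower in 12 of 18 (median -0.07) and in 8 of 18 without it (median 0.02). Cell cycle genes were higher in 17 of 32 (median 0.00) and in 24 of 32 without it (median 0.10). Ribosomal protein genes were higher in 16 of 32 with it and 23 of 32 without it, and oxidative phosphorylation genes in 24 of 35 with it and 31 of 35 without it. Over all above-median clusters the share higher with ALA was 46.1% with all arrays and 57.5% without that array.

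**Figure D3:**
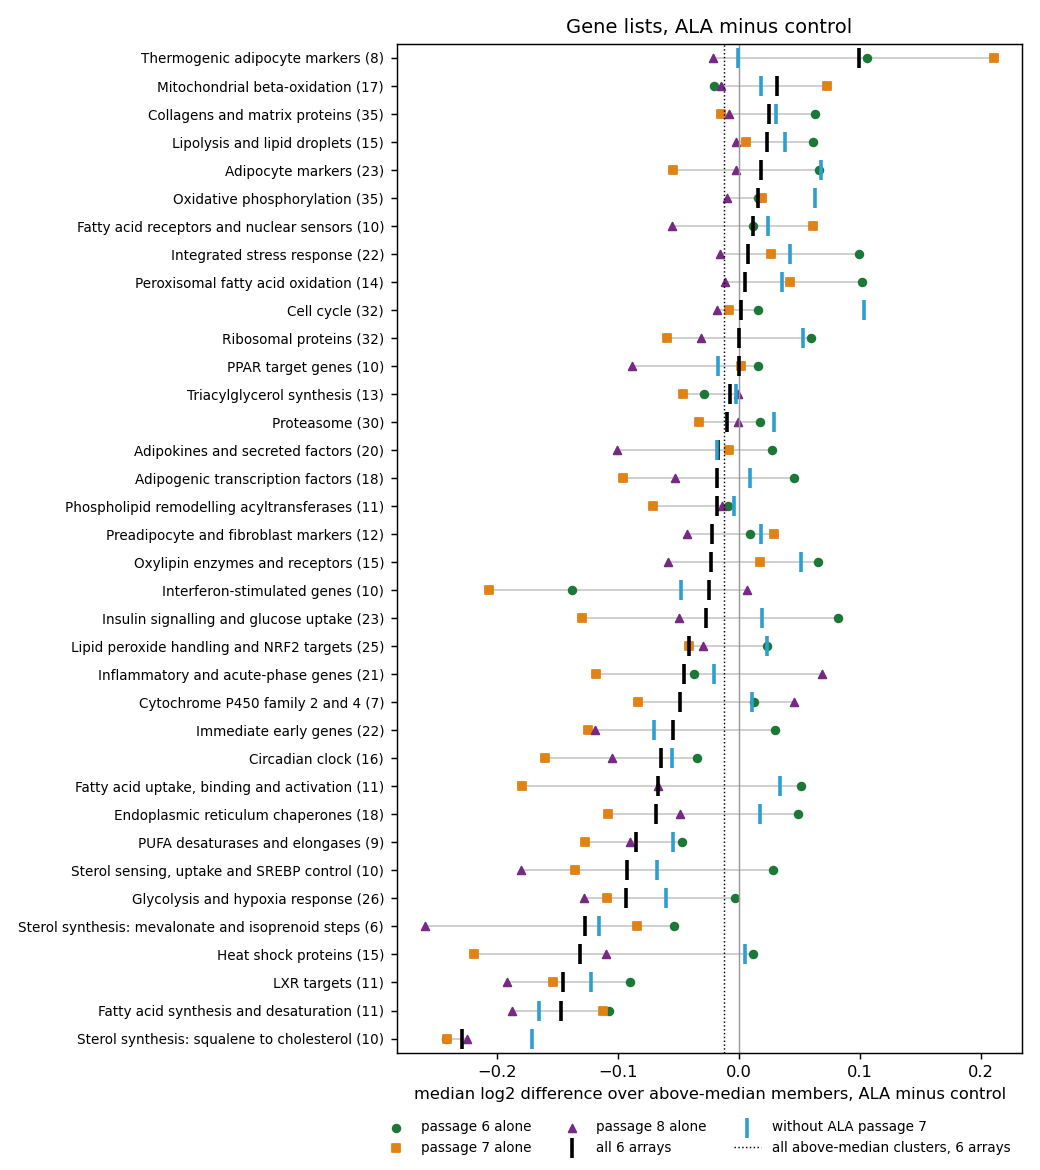
Median log2 difference, ALA minus control, over the above-median members of each gene list, with the number of members in brackets. Symbols are the medians of single passages, black bars those of all 6 arrays, blue bars those without the ALA array of passage 7, and the dotted line is the median of all above-median clusters at -0.01. The squalene-to-cholesterol list has the lowest median, -0.23, with its 3 passages close together, and the heat shock list runs from -0.22 in passage 7 to 0.01 in passage 6.

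The genes of smallest p that were higher with ALA in every passage were led by Cyb5rl, a cytochrome b5 reductase-like gene. It measured 7.58, 7.69 and 7.65 with ALA, against 7.22, 6.96 and 7.19 in control. All 3 ALA arrays lay above control, by 0.52 in the mean (SE 0.11, limma unadjusted p = 0.00048) and by 0.49 without the ALA array of passage 7. The next in order were the RNA-modifying enzymes Trmu (0.41), which thiolates mitochondrial tRNA, and Dus1l (0.37), a dihydrouridine synthase. Dus1l measured 8.13, 8.05 and 8.10 with ALA, against 7.80, 7.55 and 7.83 in control. They were followed by B4galnt1, a ganglioside synthase (0.42), Psmc3ip, a recombination cofactor (0.40), and Coq6, a monooxygenase of coenzyme Q synthesis (0.35). 2310001K24Rik (0.49), Efcc1 (0.35), Spata33 (0.39) and the EGF receptor ligand Tgfa (0.44) completed the 10. These genes were chosen by their p-values, which largely fixes that the ALA arrays lay above the control arrays in all 10 (background 3.25%), so their differences are a description.

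The genes of smallest p that were lower with ALA in every passage began with Apoc1 and Sc5d, given above. Pfn2 and Tmsb4x, which encode a profilin and a thymosin that bind actin monomers, came among the next. Tmsb4x measured 11.39, 11.20 and 11.43 with ALA, against 11.64, 11.63 and 11.76 in control, and Pfn2 measured 6.53, 6.41 and 6.62 with ALA, against 6.92, 6.86 and 6.99 in control. Neither gene had groups that overlapped. The zinc finger gene Zfp954 differed by -0.57, and by -0.38 without the ALA array of passage 7. Sostdc1, a secreted antagonist of BMP and Wnt signalling, differed by -0.37, the TFIIH subunit gene Gtf2h4 by -0.37, the apolipoprotein L gene Apol6 by -0.37 and the deubiquitinase gene Usp48 by -0.34. The pseudogene Tmem181c-ps (-0.42) is uncertain, since its probes may share sequence with its parent gene.

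**Figure D4:**
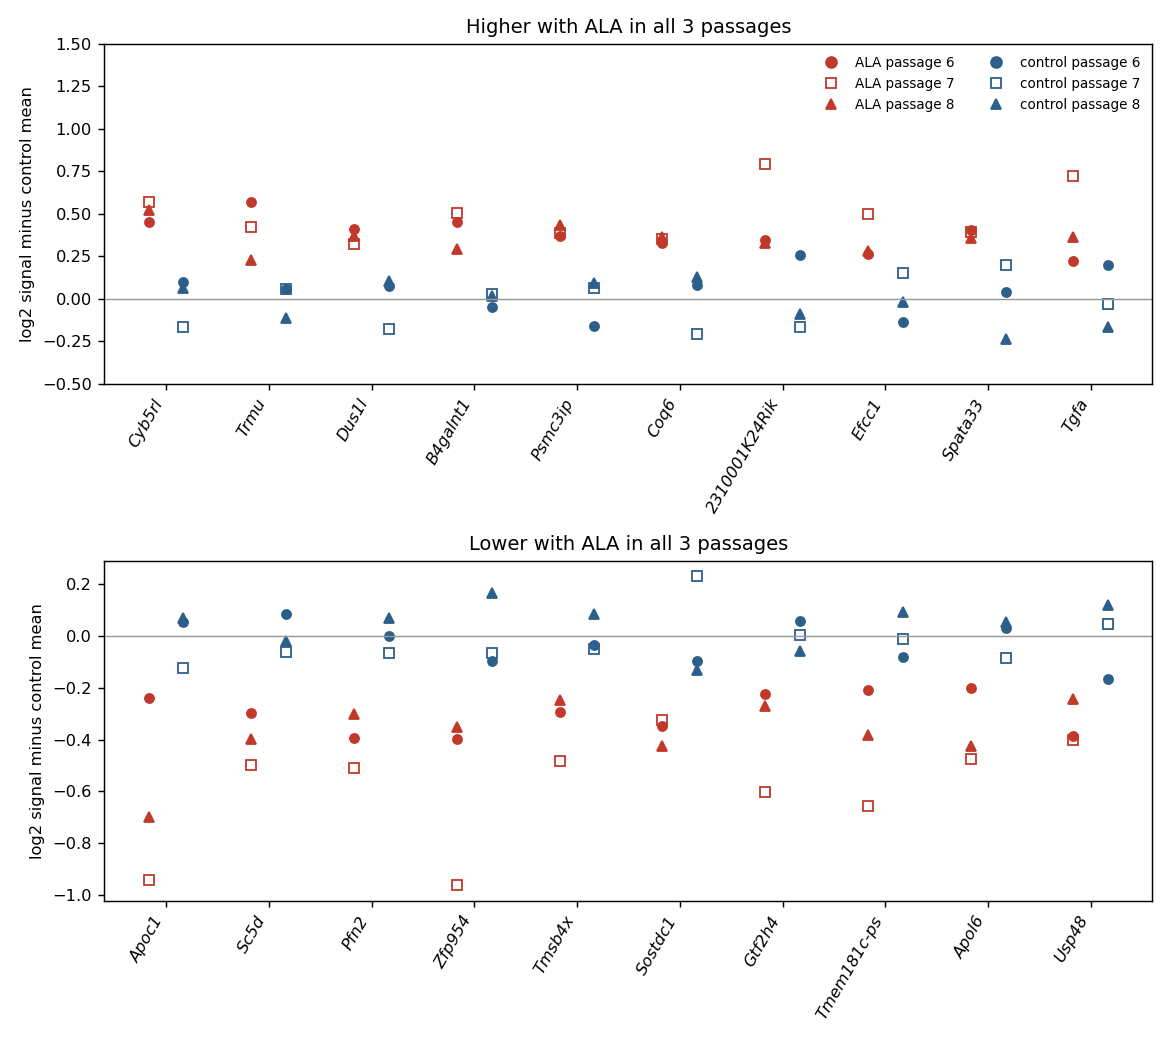
Log2 signal of each array minus the control mean of the gene, for the 10 genes of smallest p that were higher with ALA in every passage (upper panel) and the 10 that were lower (lower panel). Red symbols are ALA arrays, blue ones control arrays and open squares passage 7. The open red squares of Zfp954 and Apoc1 lie lowest in the lower panel, and those of 2310001K24Rik and Tgfa highest in the upper one.

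Leaving out the ALA array of passage 7 brought other genes forward. Pithd1, a PITH-domain gene, measured 6.68, 4.92 and 6.60 with ALA, against 6.05, 6.20 and 6.25 in control. The passage 7 array lay below all others, and those of passages 6 and 8 above all control arrays, so the difference was -0.10 with all arrays and 0.47 without that array. Mtg2, a mitochondrial ribosome GTPase, differed by 0.47 without it, and Gm10147 and Gm10487, whose values were identical and which are uncertain as separate genes, by 0.38. On the lower side were Exd2, an exonuclease (-0.42), the G-protein modulator Gpsm1 (-0.42), the opsin Rgr (-0.48), the adaptor Stap2 (-0.55) and the F-box gene Fbxo17 (-0.40). Cyb5rl, Dus1l and Sc5d were named both with and without that array.

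The same ALA treatment was also given with the delta-6-desaturase inhibitor, on arrays that are not shared with this comparison, and the difference between both ALA effects was tested. With limma 0 of 22104 clusters (0%) passed an adjusted p under 0.05 for that difference, and at unadjusted p under 0.01 there were 9 above-median clusters (0.0816%) and at under 0.05 there were 145 (1.31%). The 9 became 26, 27 and 14 without the ALA arrays of passages 7, 6 and 8, 20 without control passage 8 and 14 without inhibitor passage 6. The squalene-to-cholesterol enzymes were lower in 10 of 10 members with ALA plus inhibitor against the inhibitor also (background 56.7%), with a median of -0.17, and 5 of 10 did not overlap (background 4.72%). None of the 10 differed between the effects at unadjusted p under 0.05. For Sc5d the ALA effect was -0.40 without and -0.20 with the inhibitor, a difference of -0.20 with a 95% interval of -0.52 to 0.13, and for Sqle the effects were -0.30 and -0.09, a difference of -0.21 with an interval of -0.59 to 0.17. These intervals span both equal effects and ones that differ by more than the effect itself. Fatty acid synthesis genes were lower in 11 of 11 members with the inhibitor (median -0.13), mevalonate-step genes in 6 of 6 (median -0.16) and the desaturases and elongases in 8 of 9 (median -0.14).

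Some other lists had medians of opposite sign with and without the inhibitor when all arrays were used. Glycolysis and hypoxia genes were lower in 21 of 26 with ALA alone, while with ALA plus inhibitor 21 of 26 were higher (median 0.04). Without the ALA array of passage 7, 20 of 26 were lower with ALA alone (median -0.06). Endoplasmic reticulum chaperones were lower in 12 of 18 with ALA alone, while 17 of 18 were higher with ALA plus inhibitor (median 0.06). Without the ALA array of passage 7 that contrast of signs was gone, with 10 of 18 higher with ALA alone (median 0.02). In the test of the difference 0 of the 26 and 0 of the 18 members reached an unadjusted p under 0.05 with limma, against 1.31% of all above-median clusters. Dnajb9, a chaperone of the endoplasmic reticulum, had ALA effects of 0.01 with the inhibitor and -0.39 without it, which became -0.14 without the ALA array of passage 7.

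The single genes of smallest p for the difference were Egfl8 and Cyb5rl. Egfl8, an EGF-like domain gene, measured 6.05, 6.06 and 5.95 with ALA, against 6.29, 6.77 and 6.25 in control, and 6.79, 6.65 and 6.44 with ALA plus inhibitor, against 6.25, 6.07 and 5.88 with the inhibitor. It was lower without overlap in the first pair and higher without overlap in the second. The difference between the effects was -0.97 (95% interval -1.45 to -0.50, limma unadjusted p = 0.00074). Its ALA signals lay below 6.14, the lowest median of the 12 arrays. It thus stood above the median over the 12 arrays only through the groups in which it was high, and its place in this order is a description. Cyb5rl measured 7.12, 7.11 and 7.12 with ALA plus inhibitor, against 7.15, 7.30 and 7.37 with the inhibitor, the opposite order to that without inhibitor. Its difference was 0.67 (95% interval 0.33 to 1.01, limma unadjusted p = 0.00093). On the same side stood Zscan12 (0.64), the lipid transfer protein gene Mttp (0.53), Coq6 (0.53) and Rab3gap2 (0.41), and on the other Gtf2h4 (-0.56), Gm19426 (-0.58), 1700018B08Rik (-0.54) and Zc3hc1 (-0.46).

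**Figure D5:**
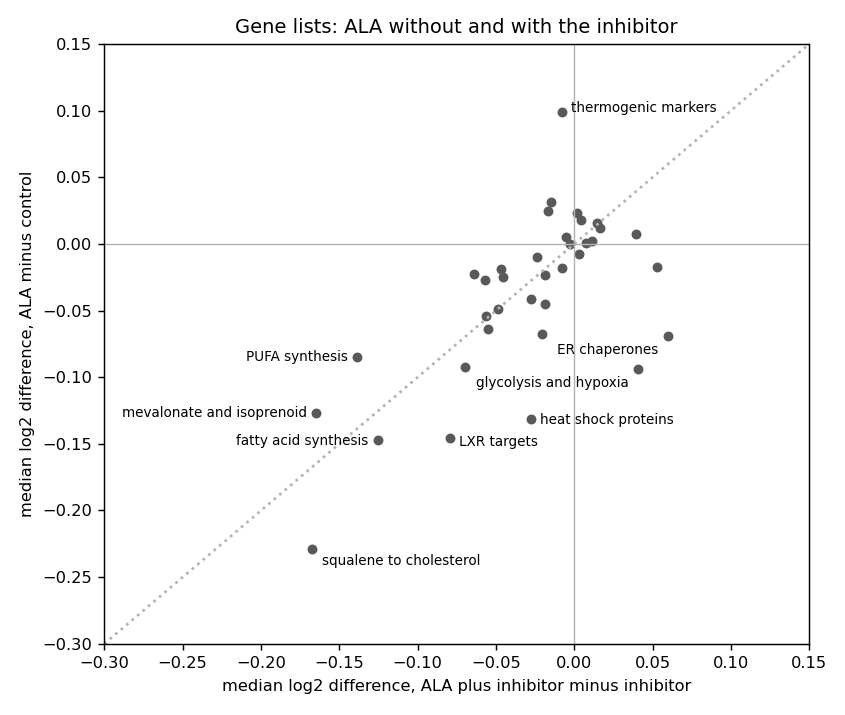
Median log2 difference over the above-median members of each gene list, ALA minus control on the vertical axis and ALA plus inhibitor minus inhibitor on the horizontal axis, with the dotted line marking equal medians. Each point is 1 list. The sterol and fatty acid synthesis lists lie below 0 on both axes, and, with all arrays, the glycolysis and chaperone lists below 0 on the vertical axis only.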

How the data were processed

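RNA of 3T3-L1 adipocytes was hybridised to whole-transcript arrays from 100 ng of total RNA with an RNA integrity number above 8.9. Per the submitters' processing notes, the authors used RMA to make the deposited log2 signals. That method corrects background, quantile-normalizes the arrays and summarises probes, so a shift shared by most genes would be removed; its version and settings are not given in the sources used here. Symbols came from GEO's platform annotation: 19509 clusters had 1 symbol, 2595 none and 0 several, and the named ones stood for 19480 genes, the brightest cluster being used for each. Scd2 was not analysed here.

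In R 4.3.3 with limma 3.58.1, a model with 1 coefficient per treatment was fitted to the deposited log2 values of all 12 arrays (8 residual degrees of freedom), with two-sided tests and Benjamini-Hochberg adjustment over all 22104 clusters. The script was tested on simulated data. "Background" gives the share of above-median clusters that met the same criterion. For ALA and control groups that did not overlap it was 3.25% higher and 3.01% lower, also where no share is printed. The promoters are RefSeq sequences of GRCm38.p6.

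The compared groups, the 40 gene lists (796 of 870 entries measured) and the tests were chosen with earlier results of these data known. Named genes were the 10 higher and 10 lower of smallest p that differed alike in all passages, 6 each without the ALA array of passage 7, 5 each for the difference with inhibitor, up to 4 a list, and fixed genes. Members of the squalene-to-cholesterol list, Mvd, and genes named for not overlapping outside this rule were added after their values were seen.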

Additional observations from a re-analysis of the deposited data

How the results depend on the processing

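Counts at adjusted p under 0.05 were 0 for ALA against control and for the difference with inhibitor under every alternative run. At unadjusted p under 0.01 the 18 above-median clusters for ALA against control became 57 with passage as a replicate block (2 with only the 6 arrays compared, 20 with both choices), and ranged from 0 to 99 when single arrays or passages were left out. They were 15 without ALA passage 7, 99 without ALA passage 6, 38 without ALA passage 8, 0 without passage 7 and 4 without passage 8. Calls were 33.3% higher with the deposited values and after quantile normalization, 41.7% after centring and 66.7% without ALA passage 7. The 9 for the difference became 27 with the block, 39 with array weights, 14 with an intensity trend and 35 without ALA passage 7 plus block, and ranged from 3 to 27 when arrays or passages were left out, with 26 without ALA passage 7. The fits of only 6 arrays cannot give the difference. The leave-out of the inhibitor arrays and the block without ALA passage 7 were chosen after seeing the data. Same-passage arrays of ALA and control deviated together with correlations of 0.013, 0.338 and 0.459 in passages 6, 7 and 8. Not every pair passed 0.1, and the fit without a block was kept as the main one. The SEs, intervals and p-values of the main fit therefore include the spread between passages. The smallest adjusted p with the block was 0.901, and it changed no call after adjustment. No named gene crossed the adjusted threshold under any alternative. Signs turned when arrays or passages were left out for Cd36 (-0.16 to 0.14), Fabp4 (-0.14 to 0.053), Adipoq (-0.068 to 0.045), Hspa9 (-0.56 to 0.073), Dnajb4 (-0.64 to 0.0052), Hsf2 (-0.53 to 0.088) and Pithd1 (-0.47 to 0.49), each highest without ALA passage 7, without passage 7 or, for Adipoq, without control passage 8. With array weights the values were 0.13 for Cd36, 0.041 for Fabp4, 0.047 for Adipoq, 0.00060 for Hspa9 and 0.31 for Pithd1. The cause was not tested. Of 612 list medians recomputed, 538 moved by less than the SD of the list's 3 passage medians and 74 by more. Only 3 arrays a group limit what can be told from spread.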
